A study of Swertia japonica with 2 samples.

Results

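The abundant, strongly aerial transcripts of Swertia japonica (Gentianaceae), an herb valued for its bitterness in Japanese medicine, numbered 187 of the 81729 assembled transcripts (unigenes). They were chosen by 3 criteria: a length of 500 to under 5000 bases, a level of at least 100 TPM (a level scaled to transcript length and to a fixed sum per library) in the aerial library, and an aerial level at least 16 times the root level. Those values chose the members, so the levels and folds below describe them and test nothing. The aerial tissues and the roots came from plants 6 months old, grown outdoors in a medicinal garden and dissected on harvest. Each tissue gave 1 strand-specific, poly(A)-selected library, and the labels do not say how many plants went into it or what mix of leaf and stem the aerial part held. Depth was 5351257 expected counts for the aerial library and 4207068 for the root library. With 1 library per tissue there is no replicate check, no p-value and no SD. Every 95% exact (Clopper-Pearson) interval below covers counting error only.

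In flowering plants, leaves and green stems carry out photosynthesis, and transcripts for light capture, carbon fixation and photorespiration usually make up a large part of their messenger RNA. Roots take up water and minerals and lack most of that machinery. Plants of the gentian family are known for bitter secoiridoid glycosides, built from plastid-made terpene precursors, and for xanthones, built partly through the phenylpropanoid route. None of this names a member: the files used here pair unigenes with numbers and not with genes, functions or sequences, so no member is given a role and the tissue labels could not be checked against marker genes. The members are ordered below by level, by the size of the bias and by the form of their identifiers.

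The 187 members were 0.229% of all unigenes and carried 16.2% of the aerial TPM against 0.428% of the root TPM. In reads, they took 902990 aerial counts (16.9%) and 20609 root counts (0.490%). Their summed level was 162497 TPM in aerial tissues and 4280 TPM in roots, a ratio of 38.0. Aerial levels of the members ran from 101 to 15826 TPM with a median of 421, where the median of all unigenes in the same length range was 5.06 TPM. Root levels ran from 0 to 657 TPM with a median of 11.4, where the median of the length range was 5.25 TPM. Of the 187 members, 127 were above that root median. In whole-organ RNA, fewer cells of a type and less RNA per cell cannot be told apart.

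**Figure D1:**
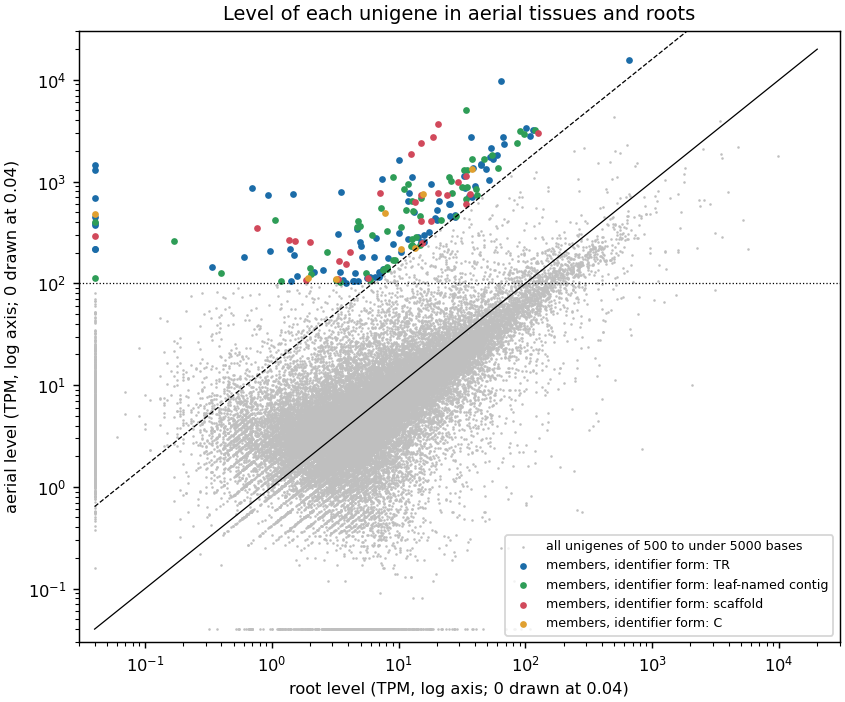
Aerial level (TPM, vertical log axis) against root level (TPM, horizontal log axis) of each unigene of 500 to under 5000 bases, with the 187 members coloured by identifier form; the solid line marks equal levels, the dashed line 16-fold and the dotted line 100 TPM. The members fill the upper left corner, 12 of them on the strip at a root level of 0, and the most abundant lies at 15826 and 657 TPM.

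Of the 1149 unigenes of this length range with at least 100 aerial TPM, 16.3% passed 16-fold and are the members. The rule used this contrast, so the share is only a description. Among the 32068 unigenes of the range with at least 20 counts over both libraries, 2.87% reached 16-fold on the aerial side and 1.47% on the root side. The same rule turned round, with at least 100 TPM in roots and 16-fold over aerial tissues, found 44 unigenes, or 3.67% of the 1200 that reached 100 root TPM. Those 44 held 2.37% of the root TPM, and 5 of them reached 1000 TPM, against 44 of the 187 members in aerial tissues.

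The ratios of the 1149 abundant aerial unigenes formed a main body near equal levels and a broad shoulder toward aerial tissues. Within 2-fold either way lay 550 of them (47.9%). From there 79 lay from 2-fold to under 4-fold, whereas 104 lay from 4-fold to under 8-fold and 101 from 8-fold to under 16-fold. The members continued this shoulder, with 82 under 32-fold, 52 from 32-fold to under 64-fold and 53 beyond. On the root side, 102 lay from 2-fold to under 4-fold, 25 from 4-fold to 16-fold and 1 past it. The choice by aerial level itself disfavours that side. On the aerial side, the threshold of 16 therefore cuts through a run of values and not through a gap.

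**Figure D2:**
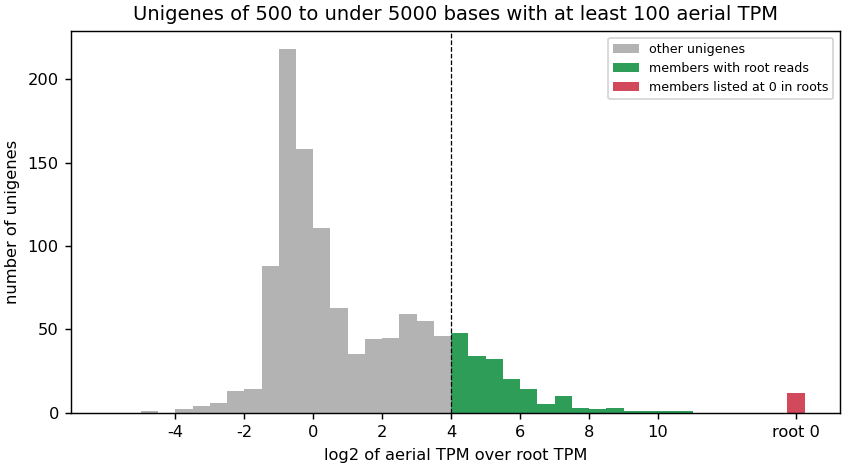
Number of unigenes (vertical axis) by the log2 ratio of aerial to root TPM (horizontal axis) for the 1149 unigenes of 500 to under 5000 bases with at least 100 aerial TPM; members are coloured, the dashed line marks 16-fold, and the separate bar holds the 12 members listed at 0 in roots. The counts fall after the main body, rise again, and pass the threshold without a break.

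Values close to the thresholds show how little separates the last members from the first unigenes outside. Unigene38157 (1376 bases) entered at 16.03-fold, with 237 TPM in aerial tissues and 14.8 TPM in roots. Unigene47633 (1157 bases) entered at 16.13-fold, with 449 and 27.8 TPM. Just outside, Unigene74464 stood at 338 and 21.3 TPM and Unigene13953 at 223 and 14.1 TPM, both 15.8-fold. At the level threshold, Unigene80767 (101 TPM) and Unigene31467 (103 TPM) were inside, and Unigene47958 (98.6 TPM) and Unigene39379 (98.1 TPM) were outside. The whole interval lay above 16-fold for 151 of the members and reached down to it for 36, while 35 other unigenes of at least 100 aerial TPM had intervals that reached up to 16-fold.

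The share of unigenes past 16-fold was higher in each higher class of aerial abundance. It was 6.65% of the 692 unigenes from 100 to under 200 TPM (95% Wilson interval 5.02 to 8.75) and 19.02% of the 305 from 200 to under 500 TPM (15.01 to 23.8). It reached 47.0% of the 83 unigenes from 500 to under 1000 TPM (36.6 to 57.6), 60.5% of the 43 from 1000 to under 2000 TPM (45.6 to 73.6), and 69.2% of the 26 at 2000 TPM or more (50.01 to 83.5). In roots the matching shares of root-biased unigenes were 2.71%, 4.27%, 4.76%, 8.70% and 16.7%, the last being 3 of 18. A high aerial level by itself favours a high aerial-to-root ratio, and the intervals take each unigene as an independent one although some are forms of a shared gene. Within the members, the median fold was 28.9 in the lowest class and 34.7 in the highest, with 38.0 as the highest of the 5 medians. The rule leaves out every fold under 16, so these medians cannot show whether the bias changes with abundance.

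**Figure D3:**
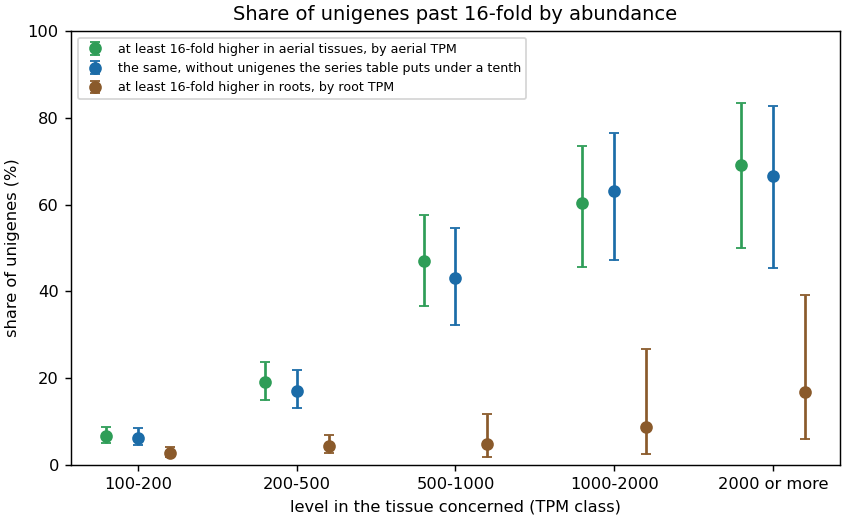
Share of unigenes of 500 to under 5000 bases (vertical axis, %) that were at least 16-fold higher in one tissue, by class of TPM in that tissue (horizontal axis); bars are 95% Wilson intervals. The aerial shares go from 6.65% to 69.2% and the root shares from 2.71% to 16.7%, and leaving out unigenes that the series table puts under 10% of their library-file value gives 6.27% to 66.7% on the aerial side.

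A few members held much of the set's level. The most abundant member carried 9.74% of the members' aerial TPM, the first 10 carried 32.6%, and 23 members sufficed for 50%. Of the 10 most abundant unigenes of the whole aerial library 5 were members, and of the first 100, 54. In roots the members ranked from 89 down to the unigenes at 0, with a median rank of 13713, and 1 member was among the first 100 there.

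Unigene62758 (1002 bases) had the highest level of any unigene in the aerial library file and was also the member with the highest root level. It stood at 15826 TPM from 68785 counts in aerial tissues and at 657 TPM from 2385 counts in roots, 24.1-fold (95% exact interval 23.1 to 25.1). Unigene45713 (1009 bases) followed at 9713 TPM from 42575 aerial counts and 64.2 TPM from 235 root counts, 151-fold (133 to 173). The levels of these members differed 1.63-fold in aerial tissues and 10.2-fold in roots. In the authors' series table, described further on, their aerial order turned, with 16384 FPKM for Unigene62758 and 22828 FPKM for Unigene45713 in the column named for leaf.

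Unigene15208 (792 bases) stood at 5075 TPM in aerial tissues and 34.1 TPM in roots, 149-fold (121 to 185). Unigene10925 (896 bases) stood at 3649 and 20.6 TPM, 177-fold (139 to 230). The next 4 members by level lay close together, between 3124 and 3330 TPM in aerial tissues and between 91.3 and 119 TPM in roots. Unigene67336 (1046 bases) had 3330 and 101 TPM, 33.0-fold (29.8 to 36.6). Unigene46874 (966 bases) had 3189 and 115 TPM, 27.7-fold (25.04 to 30.6). Unigene12279 (1366 bases) had 3183 and 119 TPM, 26.8-fold (24.7 to 29.1). For Unigene38983 (865 bases) the levels were 3124 and 91.3 TPM, 34.2-fold (30.4 to 38.7). The intervals of Unigene38983 and Unigene67336 overlap each other and lie wholly above that of Unigene12279, while that of Unigene46874 overlaps the other 3.

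**Figure D4:**
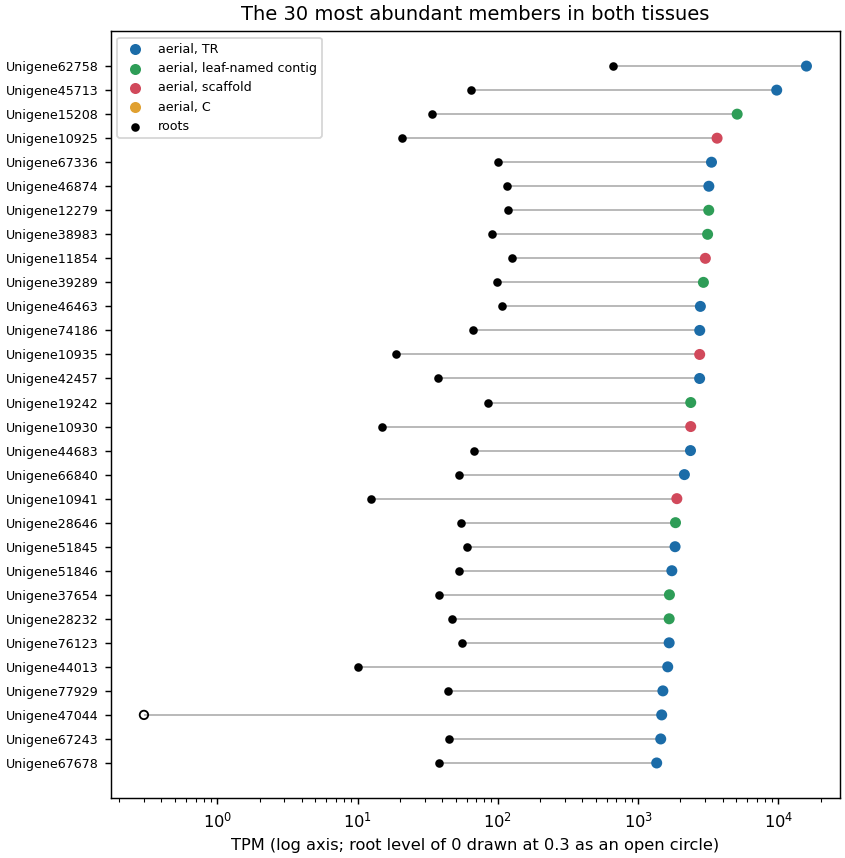
Aerial level (coloured points, by identifier form) and root level (black points; open circle for a root level of 0) in TPM on a log axis for the 30 most abundant members, 1 library per tissue. Unigene62758 has the highest level in both tissues, and 6 of the first 20 have root levels of 12.5 to 64.2 TPM that set them past 100-fold.

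Among the 20 most abundant members, 6 lay past 100-fold, between 147-fold and 177-fold, and the other 14 between 23.9-fold and 73.4-fold. The 6 were Unigene45713, Unigene15208, Unigene10925, Unigene10935, Unigene10930 and Unigene10941, a grouping chosen after their values were seen. Together they held 25435 TPM, or 2.54% of the aerial library. Unigene10925, Unigene10930, Unigene10935 and Unigene10941 carry scaffold identifiers with consecutive numbers, from 550 to 553. Unigene10930 (1350 bases) had 2368 TPM in aerial tissues and 14.9 TPM in roots, Unigene10935 (1148 bases) had 2743 and 18.7 TPM, and Unigene10941 (1193 bases) had 1886 and 12.5 TPM. The intervals of all 6 folds overlap, with bounds from 116-fold to 230-fold. The 28 scaffold members held 2 such runs. The other, named because of its numbers (831 and 832), was Unigene11909 at 126-fold (71.7 to 243) and Unigene11910 at 174-fold (91.3 to 380). Unigene11911, numbered 833, had 2.06 TPM in aerial tissues and 1.37 TPM in roots and was no member. The meaning of consecutive scaffold numbers was not given in the sources used here.

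Members with few or no root reads formed the far end of the bias. Of the 187 members, 12 were at 0 counts in roots, 5 had 1 to 3 counts, 38 had 4 to 19 and 132 had 20 or more. With 0 counts, 3 counts were taken as a floor, which is 0.396 to 1.75 TPM for these 12 lengths. The 12 had 264 to 10734 aerial counts and 112 to 1471 aerial TPM. Set against 3 root counts per library, they were 73.4-fold to 2987-fold higher in aerial tissues, with a median of 366-fold. The near ends of their exact intervals lay lower, from 59.3-fold to 2429-fold. All 12 were also at 0 in the root column of the series table, a second set of FPKM values deposited by the authors. That column also listed at 0 25 members that had root reads, 16 of them with at least 20 root counts. A 0 there therefore adds little.

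Unigene47044 (1561 bases) reached 1471 TPM in aerial tissues, from 10734 counts, and 0 in roots, 2987-fold higher when set against 3 root counts. Unigene47043 (1361 bases), a form of the same assembled gene, had 8087 counts, or 1295 TPM, and 0 in roots. Set against the same floor it was 2250-fold higher. Neither form had a read in roots, so the whole assembled gene was at 0 there. Unigene21110 (1895 bases) had 3640 aerial counts, or 402 TPM, and 0 in roots, 1013-fold higher against that floor. Unigene54906 (1078 bases) had 3272 counts, or 689 TPM, and 0 in roots, 910-fold higher against it. The near ends of the exact intervals lay lower, at 2429-fold for Unigene47044, 1830-fold for Unigene47043, 823-fold for Unigene21110 and 740-fold for Unigene54906. These 4 near ends were the largest of all members.

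The 5 members with 1 to 3 root counts, named because of those counts, have wide intervals. Unigene47962 had 2838 aerial and 3 root counts, 790-fold (270 to 3831). Unigene14694 had 1822 and 1, 1521-fold (273 to 60113). Unigene39098 had 1137 and 3, 316-fold (108 to 1537), and Unigene45639 had 501 and 1, 418-fold (74.7 to 16550). For Unigene10196 the counts were 1087 and 2, 454-fold (125 to 3751). Each of the 5 intervals lies wholly above 16-fold, while the bounds lie too far apart to rank the 5 by fold.

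At the other end of the root scale, 6 members kept at least 100 TPM in roots, 94 had 10 to under 100 TPM, 67 had 1 to under 10 TPM, and 8 had under 1 TPM without being at 0. The 6 were Unigene62758, Unigene67336, Unigene46874, Unigene12279, Unigene11854 and Unigene46463, named because of that count. All of them are among the 11 most abundant members in aerial tissues. By the rule, a member with at least 100 root TPM has at least 16 times that level in aerial tissues. A high aerial rank was therefore largely fixed in advance for these 6.

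Length was limited by the rule to 500 to under 5000 bases, and within that range the members had a median of 1231 bases and quartiles of 914 and 1673. The other 962 unigenes of at least 100 aerial TPM had a median of 1117 and quartiles of 835 and 1581, and the 44 root-biased unigenes a median of 930. The member share was 13.3% of the abundant unigenes under 1000 bases (95% Wilson interval 10.4 to 16.7), 16.9% from 1000 to under 1500 (13.4 to 21.1), 23.0% from 1500 to under 2000 (17.9 to 29.1) and 13.49% from 2000 bases (8.60 to 20.5), with no steady trend. The shortest member, Unigene14684 (510 bases), had 203 TPM in aerial tissues and 2.74 TPM in roots, 74.1-fold (28.7 to 273). The longest, Unigene10008 (4677 bases), had 250 and 15.2 TPM, 16.5-fold (14.7 to 18.5).

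By the form of the identifier, 91 members (48.7%) start with TR and carry gene and form numbers, 60 (32.1%) are contigs named for leaf, 28 (14.97%) are scaffolds and 8 (4.28%) start with C. Among the other 962 abundant unigenes the shares were 58.0%, 32.8%, 6.03% and 3.12%. The scaffold share was 14.97% of the members (95% Wilson interval 10.6 to 20.8) against 6.03% of the others (4.69 to 7.72). Scaffolds were 6 of the 44 root-biased unigenes, or 13.6% (6.403 to 26.7). Scaffold members had a median of 508 aerial TPM, TR members 421, leaf-named contigs 419 and the C form 350.

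The 91 TR members came from 86 assembled genes. In 5 of these genes the assembly held more than 1 form, and there each form present was itself a member, 10 members in all. No other form of a member's TR gene was left outside the rule. The most abundant such gene held Unigene51845 (2671 bases; 1832 TPM in aerial tissues and 59.9 TPM in roots) and Unigene51846 (2717 bases; 1737 and 52.5 TPM). Their folds were 30.6 (28.3 to 33.1) and 33.1 (30.5 to 35.9), with overlapping intervals. By the series table they were 28.0-fold and 6.49-fold, which puts Unigene51846 under 16-fold. Unigene47735 and Unigene47736 were 20.2-fold (17.1 to 24.0) and 17.3-fold (14.5 to 20.9), and Unigene54075 and Unigene54074 42.0-fold (31.9 to 56.6) and 35.9-fold (25.9 to 51.1). By the series table Unigene47735 was 19.9-fold and Unigene47736 2.42-fold, which is under the threshold, and Unigene54075 was 34.7-fold, while Unigene54074 was listed at 0 in its root column. Forms of 1 gene share sequence and so may share reads, and the handling of reads that match several forms was not given in the sources used here. Of the TR members 11.0% had another form of the same gene (95% Wilson interval 6.08 to 19.1), against 17.0% of the 558 other abundant TR unigenes (14.1 to 20.4).

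The authors' series table gives each unigene a second FPKM value (a level per length, scaled to reads) for roots and one in a column named for leaf. No sample label says leaf, so that column is given as the authors' value and is not a replicate of the aerial library. Summed over the 187 members, the leaf-named column held 158614 FPKM and the aerial library file 160394 FPKM, a ratio of 0.989. The root column summed to 4365 FPKM and the root file to 4487 FPKM, a ratio of 0.973. Single members moved far more than these sums. Unigene45713 alone went from 9587 FPKM in the aerial file to 22828 FPKM in the column, so the near-equal aerial sums rest much on it. The leaf-named value was within 1.5-fold of the aerial file for 121 members, more than 1.5-fold above it for 24, under 10% of it for 29, and in between for 13.

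The 29 members under 10% had 25026 FPKM in the aerial file and 331 FPKM in the leaf-named column, a difference of 24695. The 24 members above 1.5-fold had 22266 FPKM in the file and 45971 FPKM in the column, a difference of 23705 the other way. Both groups were chosen by the ratio compared here, so their opposite directions were fixed in advance. Much of the second difference came from Unigene45713, with 9587 FPKM in the file and 22828 FPKM in the column. Of the 28 scaffold members, 18 (64.3%, 95% Wilson interval 45.8 to 79.3) were under 10%, against 3 of the 91 TR members (3.30%, 1.13 to 9.25). Among the other abundant scaffolds 32 of 58 were under 10% (55.2%, 42.5 to 67.3), so such low table values also occurred outside the members. Over all forms, 15.5% of the members (11.0 to 21.4) and 5.51% of the other abundant unigenes (4.24 to 7.14) were under 10%.

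**Figure D5:**
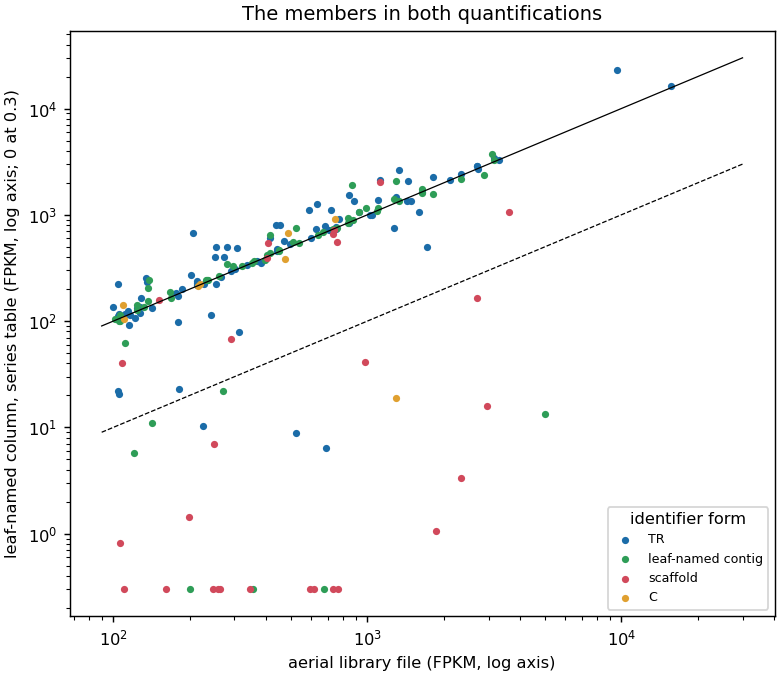
FPKM of the 187 members in the series table's leaf-named column (vertical log axis; 0 drawn at 0.3) against the aerial library file (horizontal log axis), coloured by identifier form; the solid line marks equal values and the dashed line 10%. Most members follow the solid line, while 18 of the 28 scaffold members and 11 others lie below the dashed line.

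Between the aerial file and the leaf-named column, the 6 members past 100-fold among the most abundant 20 moved in both directions. They were grouped after their values were seen, and whether reads passed between them was not tested. Unigene45713 had 9587 FPKM in the aerial file and 22828 FPKM in the leaf-named column. Unigene15208 went the other way, from 5010 to 13.47 FPKM, and Unigene10925 from 3602 to 1069 FPKM. Unigene10935 had 2708 and 164 FPKM, Unigene10930 had 2337 and 3.31 FPKM, and Unigene10941 had 1862 and 1.07 FPKM. The 6 summed to 25106 FPKM in the file and 24079 FPKM in the column, so the sum moved by a factor of 0.959. Unigene45713 held 38.2% of that sum in the file and 94.8% in the column. By the table's own values Unigene45713 was 145-fold, Unigene10925 244-fold and Unigene10935 55.3-fold, and the other 3 were listed at 0 in the root column. Of the other 14 members among the first 20, 13 were within 1.5-fold.

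Forms of 1 TR gene also moved apart, while their aerial sums moved less. Unigene47735 and Unigene47736 had 281 and 226 FPKM in the aerial file and 497 and 10.3 FPKM in the leaf-named column, with sums of 506.8 FPKM in both. Unigene47044 and Unigene47043 had 1452 and 1279 FPKM in the file and 2084 and 754 FPKM in the column, sums of 2730 and 2838 FPKM. For Unigene51845 and Unigene51846 the sums were 3523 and 2746 FPKM, a ratio of 0.779. Over the 7 TR numbers that held 2 members each, 2 of them with different gene numbers under the same TR number, the ratio of the sums ran from 0.779 to 1.14. The ratio of the 14 single members ran from 0.0455 to 1.88. In roots, the sum of Unigene51845 and Unigene51846 went the other way from their aerial sum, from 118 FPKM in the file to 157 FPKM in the column.

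Both table columns were above 0 for 148 members, and in 124 of these the table's fold was within 1.5 times that of the library files. The leaf-named level of the same 148 was within 1.5 times for 110. The other 39 members, 25 of them with root reads in the library file but 0 in the table's root column, have no such fold. The median fold of the 148 was 28.9 in the table and 31.7 in the library files. By the table's values, 20 of the 148 were under 16-fold and 4 under 4-fold. Applied to the table with FPKM in place of TPM, the rule found 164 unigenes, of which 137 were members, or 73.3% of the members and 83.5% of the 164. Of the 50 members not found that way, 38 were under 100 FPKM in the leaf-named column and 19 were scaffolds.

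Some members had no value to compare in the table. The leaf-named column listed 13 members at 0, and 11 of these were at 0 in both columns. Its root column listed 25 members at 0 that had reads in the root file, 16 of them with at least 20. Unigene9453 (2628 bases) had 370 root counts and 35.9 FPKM in the root file and 0 in the table, with 1122 FPKM in the aerial file and 2035 FPKM in the leaf-named column. Unigene10008, with 301 root counts, was at 0 in both columns. Unigene11854 (583 bases), at 3011 TPM in aerial tissues and 126 TPM in roots, 23.9-fold (20.9 to 27.5), had 15.8 FPKM in the leaf-named column and 4.03 FPKM in the root column. Unigene14407 had 361 and 4.70 TPM in the library files, and 0 and 0.44 FPKM in the table. Unigene10196 was at 0 and 1.27 FPKM there. These last 3 are the most abundant of 6 members whose table values put them under 4-fold, and for the last 2 the table's root value is the higher one.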

How the data were processed

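Per the file headers, the authors deposited expected counts, TPM and FPKM for each assembled transcript, in 1 file per library. The submitters' processing notes name Trimmomatic and RSEM, with no version (assembler and aligner: not given in the sources used here). Expected counts were whole in both files (0 exceptions). A series table deposited by the authors holds further FPKM values made in a way not described there. Its root column matches the root sample's name. A further per-sample column (1 in all), named for leaf, matches no sample label and is printed only as the authors' value.

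The files were joined by transcript, and all 81729 matched the table. The fold is the ratio of TPM. Its 95% exact (Clopper-Pearson) interval comes from the division of a unigene's counts between the libraries. A root count of 0 was set to 3 as a floor for the printed fold, and counts under 3 to 3 for medians. For a member at 0 in roots, the near end of the interval lies below that fold. Shares carry 95% Wilson intervals. Intervals and floors cover counting error only, because the reads carry no molecular identifiers. Depth was 5351257 counts (aerial) and 4207068 (roots). The median TPM ratio of 31660 unigenes of the length range with at least 20 counts and reads in both libraries was -0.18 on the log2 scale, so folds relative to that median are 1.13 times those printed.

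The members, lists and alternatives were chosen with earlier results of these data known. Unigenes are named by rank: the 8 highest levels, the 4 largest near interval ends, the 4 highest counts beside a root count of 0, the nearest to each threshold, the shortest and longest, shared TR genes, and the largest disagreements with the table (ties ordered by root count). Others are said to be named otherwise. The fold and interval were tried on simulated counts with counting error alone, the error that the interval assumes. That checks the calculation and no other source of error. Alternatives used edgeR 4.0.16 (TMM), DESeq2 1.42.0 (size factors), other thresholds, FPKM, summed TR forms and the series table. Python 3.11.15, numpy 2.4.6, scipy 1.17.1, pandas 2.3.3, matplotlib 3.10.9 and R 4.3.3 were used.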

Additional observations from a re-analysis of the deposited data

How the results depend on the processing

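The number of members (187) stayed within 1.5 times under every alternative run but the other folds, with 288 at 8-fold and 105 at 32-fold. TMM gave 206 and DESeq2 size factors 207, each holding all 187, and the ratio of CPM (counts scaled to library totals) gave 179, all of them members. The share of the aerial TPM (16.2%) was 16.04% with CPM, 16.8% with TMM or DESeq2 size factors, 16.8% from 50 TPM, 15.7% from 200 TPM, 19.5% at 8-fold and 9.74% at 32-fold. It was 16.8% with a length of at least 300 and no upper limit, 11.5% from 1000 bases, 15.4% for intervals wholly above 16-fold, 16.03% by FPKM and 16.4% with TR forms summed. Each of these shares is the library-file aerial TPM held by the unigenes that the alternative chose. The 164 unigenes chosen by the series table held 13.7%, and those chosen with the table's root values alone held 17.3%. The 187 members themselves held 16.6% of the FPKM in the leaf-named column. The members at 0 in roots (12) became 24 from 50 TPM, 5 from 1000 bases and 69 with the table's root values, since that column lists more unigenes at 0. The median fold (34.4) became 21.3 at 8-fold and 69.9 at 32-fold, and 59.1 with the table's root values, where unigenes at 0 count as the largest folds. Leaving out unigenes that the table puts under 10%, an alternative chosen after seeing the data, left 158 members, 13.7% of the aerial TPM and a median of 33.9-fold. Thresholds change these counts by construction. For the table, which of its steps moved the values was not tested. Depth limits the folds of members with 3 root counts or fewer. No paired analysis was possible because only 1 library was made per tissue.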
